A study of Mus musculus with 240 samples.

Results

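The axon guidance receptors and ligands are 68 of the 34623 genes in the table. They are the protein-coding genes whose symbols name an Eph receptor (14 genes), an ephrin (8), a secreted class 3 semaphorin (7), a membrane-bound class 4 to 7 semaphorin (13), a plexin (9), a neuropilin (2), a Slit (3), a Robo (4), a netrin (3) or a netrin receptor of the Unc5 family or Dcc (5). The choice used symbols only and no measured value.

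These families steer growing axons and migrating cells by attraction and repulsion. Ephrins are tethered to the cell surface and signal on contact with Eph receptor tyrosine kinases, of which the EphA class mainly binds ephrin-A and the EphB class ephrin-B ligands. Secreted class 3 semaphorins bind neuropilins, which signal through plexins, whereas most membrane-bound semaphorins bind plexins directly. Slits bind Robo receptors, and netrins bind Dcc, which mainly attracts, and Unc5 receptors, which mainly repel. Oligodendrocyte precursor cells (OPCs), the dividing glial cells that give rise to myelinating oligodendrocytes, respond to netrin, semaphorin and ephrin cues as they migrate, and neurons express most of these genes.

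The study followed mouse brain OPCs from premalignancy to glioma, with cells cut from tissue sections by laser-capture microdissection and their RNA sequenced. Of 240 libraries, 48 are bulk libraries from 37 mice, made from 10 µm sections, and 192 are small libraries from 8 µm sections. All small libraries come from mutant mice: 112 hold 10 cells each and 80 are pool-and-split controls, in which a pool of cells was divided to measure technical spread. Times are counted for all groups, WT included, in days from the start of tamoxifen (dpi).

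The mutant mice carried the genotype Trp53-/- Nf1-/-, called CKO in the titles, and lacked a pair of tumour suppressors, p53 and neurofibromin. Their bulk groups were OPCs at 12 dpi (7 mice) and 90 dpi (7 mice) and tumour cells at 150 dpi (7 mice). The wild-type (WT) groups were OPCs at 12 dpi (5 mice), 90 dpi (5 mice) and 150 dpi (6 mice). Every bulk title marks the cells as tdT-positive, both sexes are in each group, and the driver of the recombination was not given in the sources used here. The mutant samples at 150 dpi analysed here are all tumours, so time and malignancy cannot be told apart in the mutants. At 12 and 90 dpi the small libraries give 56 10-cell and 40 pool-and-split libraries each.

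Total counts, in units of 1000000, were 0.0937 to 23.2 per bulk library (median 10.0), 1.64 to 6.49 per 10-cell library (median 4.24) and 1.91 to 5.16 per pool-and-split library (median 3.80). The shallowest bulk library, WT_21167 at 90 dpi, is the lone library of its mouse, and 1 count in it equals 9.47 CPM (counts per 1000000 counts), so single genes in that mouse say little. Levels below are CPM of TMM-scaled totals unless a length scale is named. The mutant mouse CKO_20647 at 90 dpi stood apart, with summed neuron markers of 16255 CPM against 8460.2 to 10153 CPM in the other 6 of its group. Its summed astrocyte markers were apart too, at 6969 CPM against 2353 to 3341 CPM in those 6. Transcripts of the targeted genes were still counted: Nf1 was at 274 to 343 CPM in WT and 149.5 to 302 CPM in CKO mice at 90 dpi and 149.5 to 273 CPM in tumours, and Trp53 at 9.47 to 29.4, 15.9 to 38.5 and 18.5 to 77.8 CPM. The files do not say which exons were deleted, so these levels do not check the labels.

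The captured cells were labelled OPCs, and their OPC markers were present in every group. The OPC marker Pdgfra, a growth factor receptor, was at 246 to 712 CPM in WT mice at 150 dpi and at 556 to 2631 CPM in tumours. The 12 OPC markers summed to 1560.0 to 2795 CPM in WT mice at 150 dpi, 1888 to 2809 CPM in CKO mice at 90 dpi and 3028 to 9768 CPM in tumours. The captures that were not tumours also held much neuronal RNA. The 10 neuron markers summed to 8389 to 11622 CPM in WT mice at 150 dpi, 8460.2 to 16255 CPM in CKO mice at 90 dpi and only 306 to 1539.6 CPM in tumours. Against WT mice, 9 of the 10 neuron markers fell in tumours, and against CKO mice all 10 did. By the same test, defined in the next paragraph, 24.3% of all tested genes rose and 21.9% fell against WT mice. Against CKO mice these shares were 26.4% and 22.6%. Of the 12 OPC markers, 10 rose and 1 fell against WT. The 10 oligodendrocyte markers were 1563 to 3152 CPM in WT mice and 392 to 1641 CPM in tumours, with 1 higher and 6 lower, and the 8 astrocyte markers 2711 to 4025 and 1228 to 3610.2 CPM, with 4 higher and 2 lower. No marker of any list was at 0 in all animals of a group. In bulk RNA, fewer cells of a type and less RNA per cell cannot be told apart.

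Tumours differed from both comparison groups in most axon guidance genes that could be tested. In every tumour 6 EphA receptors, Efna3, Efnb2, Efnb3, Slit3, Robo2 and Sema3c were below every WT and CKO mouse of these comparisons, while Ephb2, Ephb3, Sema3d, Nrp1 and several plexins rose. Of the 68 genes, 66 passed the filter on low counts, while Epha8 and Ntn5, below 2 CPM in every mouse, did not. Against WT mice at 150 dpi, 40 of the 66 were called, 18 higher and 22 lower, where 46.2% of all 16347 tested genes were called (24.3% higher and 21.9% lower). Against CKO mice at 90 dpi, 44 were called, 19 higher and 25 lower, where 49% of all tested genes were called (26.4% higher and 22.6% lower). A call is an adjusted p under 0.05 in edgeR's quasi-likelihood test with Benjamini-Hochberg adjustment over all tested genes, and every adjusted p below comes from this test. The balance of higher and lower calls moved with the scaling. Against WT mice RLE scaling gave 20 higher and 21 lower and DESeq2 21 and 21, and the share of all calls that were higher went from 52.6% to 62.0% and 62.1%. Against CKO mice they gave 22 and 24, and 23 and 25, and that share went from 53.8% to 63.5% and 63.6%. The median log2 change of the 66 was -0.08 against WT, where that of all genes was 0.06, and -0.26 against CKO, where that of all genes was 0.12.

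Both tumour comparisons share the same 7 tumours, so each call in one is no independent check of the other. Their calls were in the same direction for 15 higher and 22 lower genes, 3 were called against WT only, 7 against CKO only and 19 in neither. Against WT mice, all 7 tumours lay above all 6 WT mice for 6 of the 66 genes (9.09%) and below them for 12 (18.2%), all of them called. Such a lack of overlap was seen in 6.73% and 8.96% of all tested genes. Against CKO mice the counts were 3 (4.55%) and 15 (22.7%), where the shares of all tested genes were 6.77% and 10.5%.

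**Figure D1:**
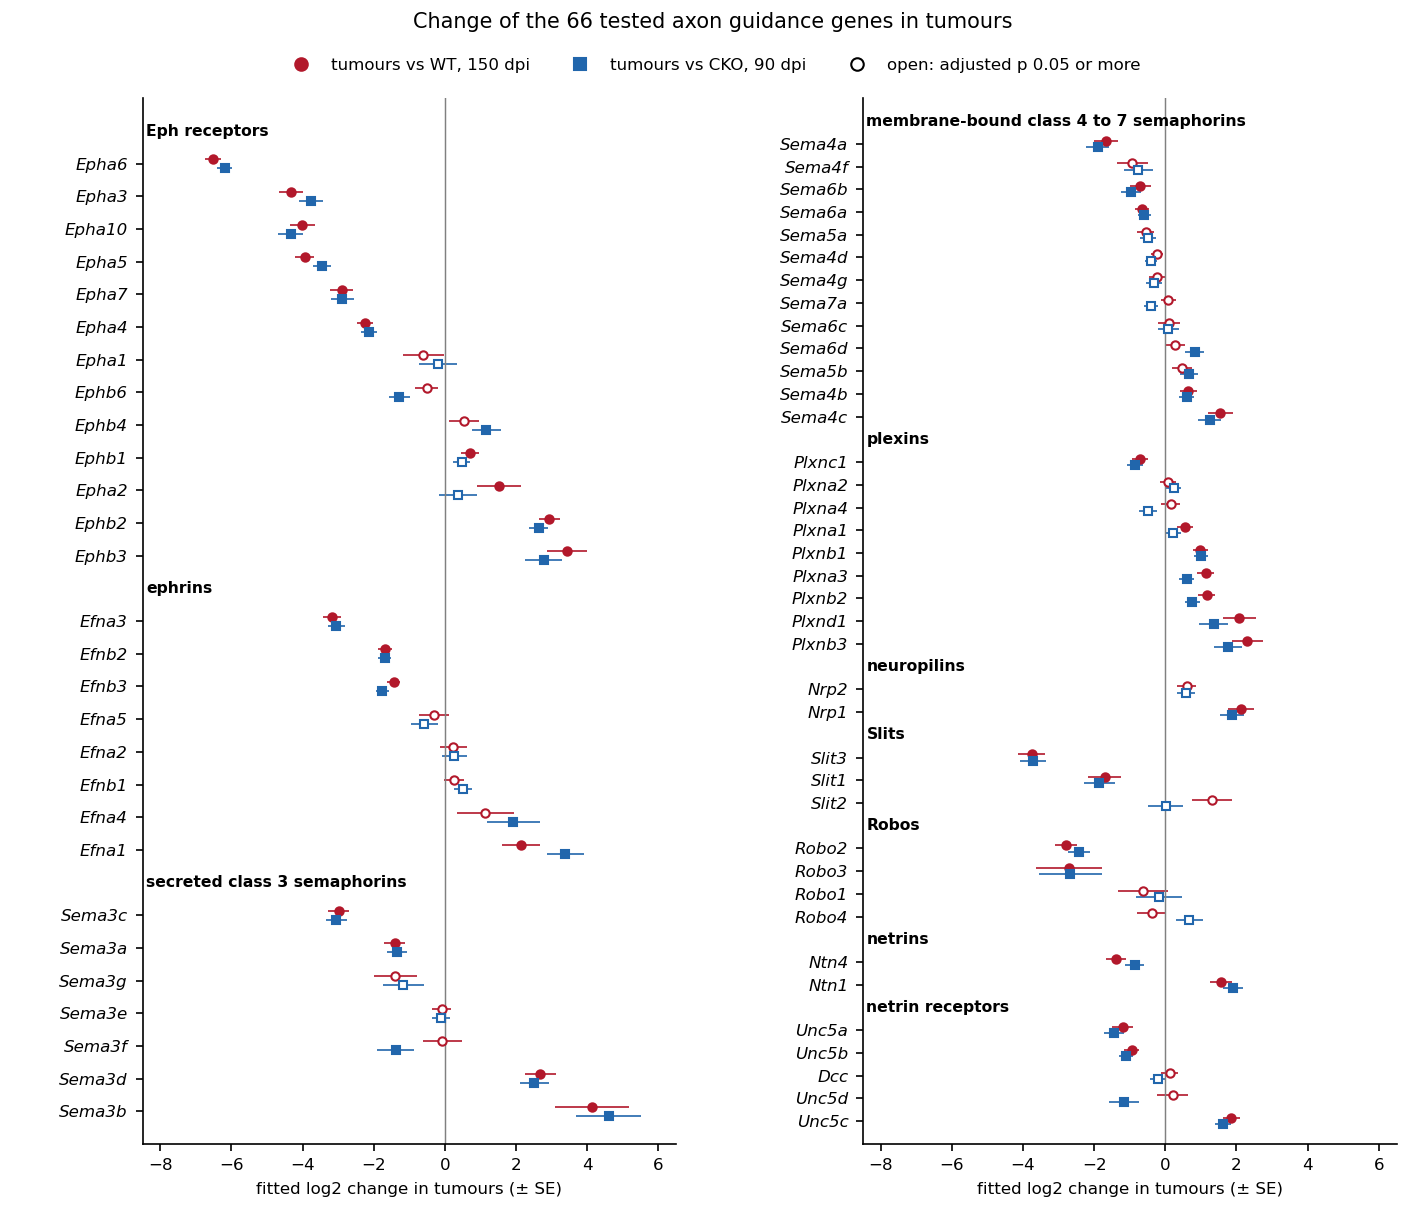
Fitted log2 change in tumours (x axis, bars show the SE) of the 66 tested genes, listed by family, against WT mice at 150 dpi (red circles) and CKO mice at 90 dpi (blue squares), with filled symbols where the adjusted p was under 0.05. Epha6 lies furthest towards lower values in both comparisons, at -6.52 and -6.19, and Sema3b furthest towards higher values, at 4.13 and 4.61, and the 2 comparisons share the tumours.

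EphA receptors fell nearly as a class in tumours, where 21.9% of all tested genes fell against WT mice and 22.6% against CKO mice. Of the 8 EphA receptors tested, 6 fell, 1 rose and 1 was not called against WT mice, and 6 fell and 2 were not called against CKO mice. Their summed level was 733 to 1539 CPM (median 919) in WT mice at 150 dpi, 659 to 957 CPM (median 757) in CKO mice at 90 dpi and 53.4 to 145 CPM (median 95.5) in tumours, with no overlap. In each of the other 3 groups it lay between 614 and 890.1 CPM.

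Epha6, an EphA receptor of the adult nervous system, had 77.4 to 123 CPM (median 103) in WT mice at 150 dpi and 56.6 to 99.2 CPM (median 82.7) in CKO mice at 90 dpi. Tumours had 0.497 to 1.75 CPM (median 1.08), so that the highest tumour was far below the lowest of the other mice (log2 change -6.52, SE 0.22, adjusted p 1.74e-22 against WT). The promoters of the EphA receptors with the largest falls and of the EphB receptors with the largest rises are shown to set the opposite changes beside the sequence upstream of each gene. They are the 250 bases before the annotated start, from RefSeq on build GRCm38.p6, written 5′ to 3′ on the strand of the gene, and capitals mark each CG dinucleotide. Epha6 lies at chr16:60605532-60605781 (minus strand, 15 CG), Epha3 at chr16:63864176-63864425 (minus strand, 16 CG), Ephb3 at chr16:21204545-21204794 (plus strand, 16 CG) and Ephb2 at chr4:136836013-136836262 (minus strand, 20 CG).
Epha6: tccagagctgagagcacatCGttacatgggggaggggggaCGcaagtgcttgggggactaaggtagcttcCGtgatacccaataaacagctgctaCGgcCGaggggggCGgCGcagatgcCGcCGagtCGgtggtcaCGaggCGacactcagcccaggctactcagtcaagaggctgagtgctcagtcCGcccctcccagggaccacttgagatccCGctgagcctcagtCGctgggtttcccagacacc
Epha3: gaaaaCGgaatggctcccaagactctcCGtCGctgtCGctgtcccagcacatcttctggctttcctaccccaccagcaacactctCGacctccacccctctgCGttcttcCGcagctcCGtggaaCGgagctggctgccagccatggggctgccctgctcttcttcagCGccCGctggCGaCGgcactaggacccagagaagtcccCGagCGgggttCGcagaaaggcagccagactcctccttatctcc
Ephb3: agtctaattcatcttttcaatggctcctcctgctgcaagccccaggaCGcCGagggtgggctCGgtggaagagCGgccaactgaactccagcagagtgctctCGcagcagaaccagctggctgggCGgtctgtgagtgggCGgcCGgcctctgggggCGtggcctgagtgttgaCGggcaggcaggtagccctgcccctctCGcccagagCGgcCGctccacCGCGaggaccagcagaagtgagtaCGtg
Ephb2: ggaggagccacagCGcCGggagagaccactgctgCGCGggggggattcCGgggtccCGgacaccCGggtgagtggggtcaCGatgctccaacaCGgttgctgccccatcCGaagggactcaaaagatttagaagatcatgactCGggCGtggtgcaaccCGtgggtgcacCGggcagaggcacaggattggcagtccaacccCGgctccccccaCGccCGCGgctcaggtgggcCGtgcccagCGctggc

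All 4 windows are rich in CG dinucleotides, whichever way the gene moved. Of the 68 genes, 58 had at least 1 promoter in RefSeq. The median number of CG was 17 over 27 windows of genes that fell against WT, 16 over 19 windows of genes that rose and 11.5 over 26 windows of genes not called, where 32851 windows of all genes had a median of 6. Motifs were searched on both strands in 74 windows of the guidance genes. TGANTCA, bound by AP-1, was in 4.05% of them and in 6.75% of all promoters, and TGACGTCA, the cAMP response element, in 1.35% and 1.55%. CCGGAAG, an ETS motif, was in 2.70% and 6.91%, and AACAATGG, a SOX motif, in 0 and 0.901%. No motif contains another, and a match describes the letters only.

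Epha3, which binds ephrin-A5 among others, had 29.7 to 109 CPM (median 60.7) in WT mice and 1.02 to 8.18 CPM (median 2.58) in tumours (log2 change -4.32, SE 0.34, adjusted p 6.75e-13). Epha5, the most abundant Eph receptor per kilobase in WT mice at 150 dpi, had 352 to 1010.1 CPM (median 507) there, 331 to 581 CPM (median 372) in CKO mice at 90 dpi and 20.6 to 88.2 CPM (median 34.9) in tumours (log2 change -3.94, SE 0.27, adjusted p 1.05e-14). For both receptors no tumour reached the range of either comparison group. Epha10, a receptor whose kinase domain is thought to be inactive, had 12.2 to 20.3 CPM (median 14.7) in WT mice and 0.330 to 2.66 CPM (median 0.649) in tumours (log2 change -4.004, SE 0.35, adjusted p 9.14e-12). With only the deepest library of each mouse, the Epha10 change was -4.65, adjusted p 1.3e-12.

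Epha7 had 36.7 to 62.9 CPM (median 48.2) in WT mice and 1.89 to 17.5 CPM (median 5.17) in tumours (log2 change -2.90, SE 0.33, adjusted p 3.13e-09). Epha4, which binds ephrins of both classes, had 141 to 245 CPM (median 209.7) in WT mice and 19.5 to 95.5 CPM (median 30.8) in tumours (log2 change -2.25, SE 0.23, adjusted p 3.9e-10). Neither overlapped, and the highest Epha4 tumour, Tumor_16839, had 95.5 CPM against 48.6 CPM in the next. Against CKO mice the falls of Epha6, Epha10, Epha3, Epha5, Epha7 and Epha4 were -6.19, -4.34, -3.76, -3.45, -2.89 and -2.12 on the log2 scale, each with no overlap. The summed neuron markers were lower too, at 306 to 1539.6 CPM in tumours against 8389 to 11622 CPM in WT mice, and their part in the result was not tested.

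Epha2, which is often raised in gliomas, was at 0 to 1.04 CPM in WT mice and 0.380 to 2.98 CPM (median 0.879) in tumours. It was called higher against WT (log2 change 1.53, SE 0.62, adjusted p 0.0406), and 3 of 7 tumours lay above every WT mouse. This call was lost without Tumor_21256, WT_21590, WT_21591, WT_21592, WT_22064 or Tumor_16844 (1.21, adjusted p 0.115 without the last), without the filter (1.53, adjusted p 0.0811) and with the deepest library of each mouse (1.60, adjusted p 0.0514). Without WT_21593 the change was 2.154, adjusted p 0.0136. Against CKO mice Epha2 was not called (log2 change 0.36, SE 0.53, adjusted p 0.599). Epha1, expressed mainly in epithelia, was below 10 CPM in every mouse and was not called (log2 change -0.61, SE 0.58, adjusted p 0.414 against WT).

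More EphB receptors rose than fell, where 24.3% of all tested genes rose against WT mice and 26.4% against CKO mice. Of the 5 EphB receptors tested, 3 rose and none fell against WT mice, and 3 rose and 1 fell against CKO mice. Their summed level was 20.9 to 34.8 CPM (median 26.6) in WT mice at 150 dpi and 50.1 to 215 CPM (median 69.0) in tumours, with no overlap. In CKO mice at 90 dpi it was 27.9 to 63.2 CPM (median 33.8), which overlapped with the tumours. Ephb3 alone was at 162 CPM in Tumor_16844. Ephb2, a receptor for ephrin-B ligands, had 2.27 to 4.63 CPM (median 3.72) in WT mice at 150 dpi, 2.95 to 6.62 CPM (median 4.99) in CKO mice at 90 dpi and 17.4 to 38.7 CPM (median 30.5) in tumours. All 7 tumours lay above every mouse of both groups (log2 change 2.94, SE 0.29, adjusted p 2.16e-10 against WT, and 2.64, SE 0.26, adjusted p 1.79e-10 against CKO). All 10 proliferation markers rose as well, with a sum of 10.8 to 39.2 CPM in WT mice and 468 to 2298 CPM in tumours, and their part in the result was not tested.

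Ephb3, a close relative of Ephb2, had 0.668 to 5.86 CPM (median 3.30) in WT mice and 6.19 to 162 CPM (median 15.6) in tumours (log2 change 3.44, SE 0.56, adjusted p 3.85e-06). Here 1 tumour set the size: Tumor_16844 had 162 CPM and the next highest 23.6 CPM. Its 2 libraries, scaled to their own totals, both showed the high level, at 214.6 and 167 CPM. Without this tumour the change was 2.18, adjusted p 9.19e-06 against WT and 1.63, adjusted p 0.000112 against CKO, where it was 2.78 with it. Ephb1 had 4.53 to 9.73 CPM (median 8.70) in WT mice and 7.04 to 26.0 CPM (median 10.2) in tumours, a small rise with 4 of 7 tumours above every WT mouse (log2 change 0.71, SE 0.26, adjusted p 0.0219). That call was lost without Tumor_16839 (0.48, adjusted p 0.1) or WT_21592 (0.61, adjusted p 0.0575), and when only the 2 compared groups were fitted (0.77, adjusted p 0.0946).

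Ephb4, best known for its role in veins, was higher only by the test against CKO mice (log2 change 1.17, SE 0.40, adjusted p 0.0146, against 0.53, SE 0.42, adjusted p 0.324 for WT), and was not called without Tumor_16713 (0.93, adjusted p 0.0593). Ephb6, which has no kinase activity, fell against CKO mice (log2 change -1.28, SE 0.30, adjusted p 0.000669), with 8.13 to 44.5 CPM (median 12.0) there and 3.10 to 11.9 CPM (median 7.03) in tumours, and was not called against WT (log2 change -0.51, SE 0.32, adjusted p 0.202).

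Ephrin ligands split by gene. Against WT mice 1 of the 8 rose and 3 fell, where 24.3% of all tested genes rose and 21.9% fell. Against CKO mice 2 rose and 3 fell, where the shares of all tested genes were 26.4% and 22.6%. Efna3, an ephrin-A ligand, had 14.3 to 34.9 CPM (median 17.5) in WT mice, 12.8 to 22.5 CPM (median 17.8) in CKO mice and 1.03 to 3.66 CPM (median 2.31) in tumours, with no overlap (log2 change -3.17, SE 0.25, adjusted p 9.02e-13 against WT). Efnb2, a ligand of Ephb2 and Ephb4, had 72.2 to 107 CPM (median 82.0) in WT mice and 13.1 to 40.7 CPM (median 26.0) in tumours (log2 change -1.69, SE 0.19, adjusted p 3.11e-09). Efnb3, the ephrin-B ligand of the midline and of myelin, had 33.4 to 56.0 CPM (median 53.7) in WT mice and 10.9 to 30.6 CPM (median 19.4) in tumours (log2 change -1.44, SE 0.19, adjusted p 8.45e-08). All 7 tumours were below every WT mouse for both ligands.

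Efna1, the main ligand of Epha2, went up, with 0 to 3.31 CPM (median 1.58) in WT mice, 0.294 to 1.28 CPM (median 0.674) in CKO mice and 3.51 to 15.5 CPM (median 4.97) in tumours. The 7 tumours did not overlap with either group (log2 change 2.146, SE 0.53, adjusted p 0.00107 against WT, and 3.39, SE 0.52, adjusted p 1.27e-06 against CKO). Efna4 was called against CKO mice only (log2 change 1.93, SE 0.76, adjusted p 0.0332) at levels of at most 2.60 CPM, and the call was lost without the filter (1.96, adjusted p 0.0722), without CKO_22146 (1.82, adjusted p 0.0533) or without CKO_22149 (1.82, adjusted p 0.053). Efna2, Efna5 and Efnb1 were called in neither comparison, with changes against WT of 0.24, -0.31 and 0.24.

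**Figure D2:**
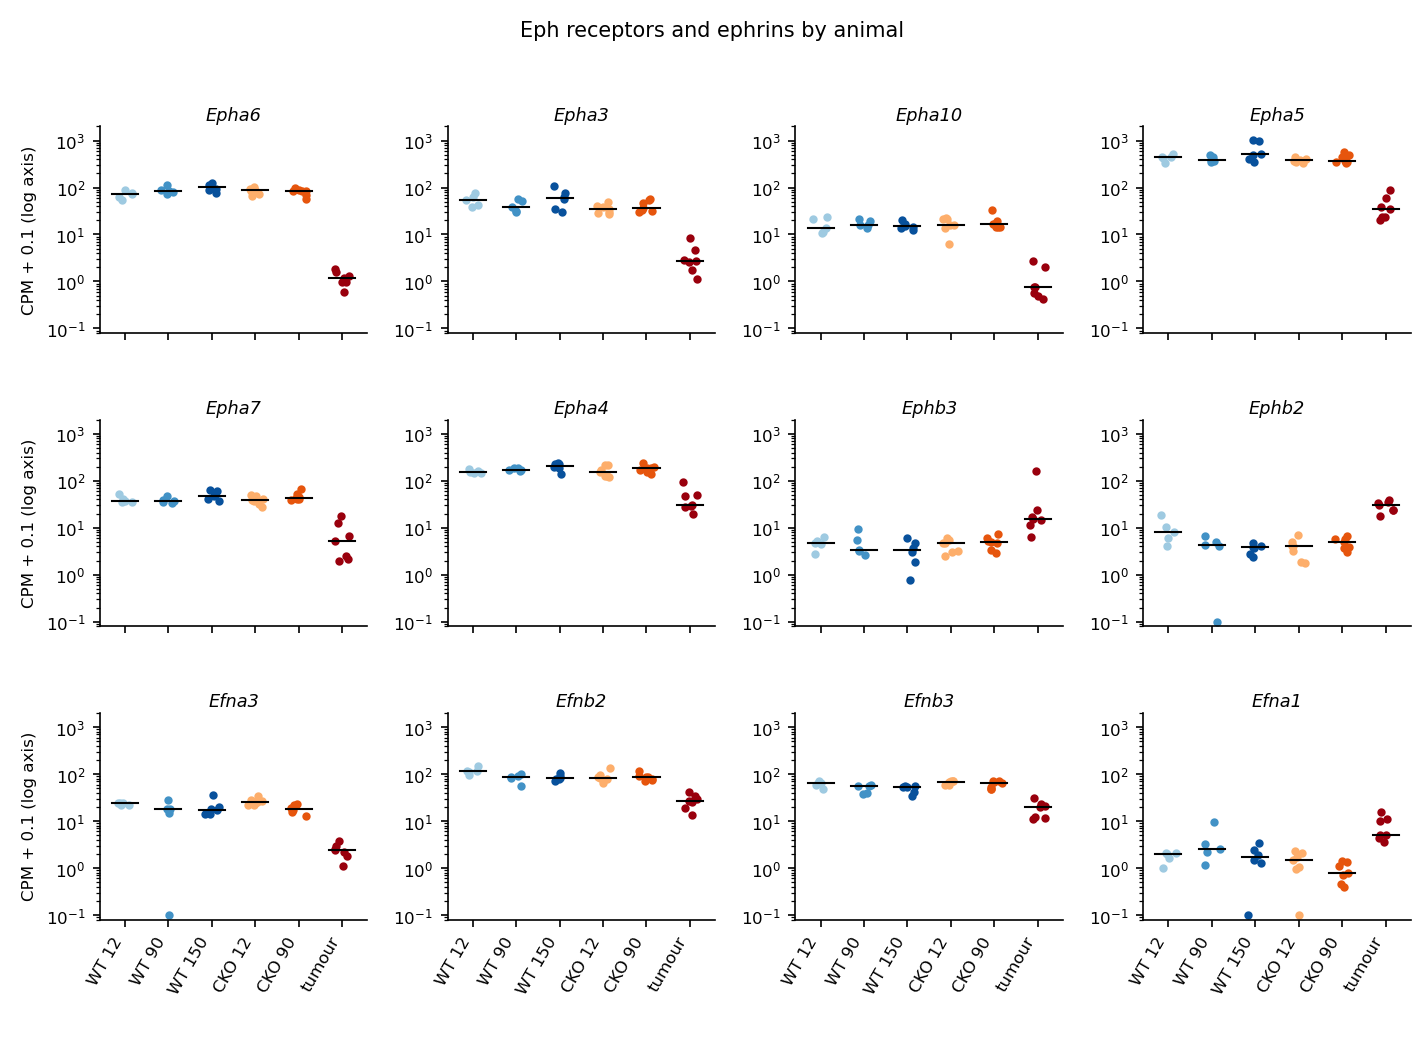
Level of 6 EphA receptors, 2 EphB receptors and 4 ephrins in each of the 37 bulk mice (y axis, CPM plus 0.1, log axis) by group (x axis, WT at 12, 90 and 150 dpi, CKO at 12 and 90 dpi and tumours), each point a mouse and each line the group median. Epha6 is at 54.1 CPM or more in every mouse that is no tumour and at 1.75 CPM or less in every tumour; the single high Ephb3 tumour is Tumor_16844.

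Some secreted class 3 semaphorins rose and others fell. Against WT mice 2 of 7 rose and 2 fell, where 24.3% of all tested genes rose and 21.9% fell. Against CKO mice 2 rose and 3 fell, where the shares of all tested genes were 26.4% and 22.6%. Sema3d, a neuropilin ligand, had 34.5 to 124 CPM (median 46.1) in WT mice, 56.1 to 92.0 CPM (median 62.7) in CKO mice and 63.0 to 946 CPM (median 361) in tumours. Of the 7 tumours, 5 lay above every WT mouse, and the tumours themselves spanned a wide range (log2 change 2.69, SE 0.43, adjusted p 2.8e-06 against WT, and 2.52, SE 0.40, adjusted p 2.28e-06 against CKO). Per kilobase of exon, Sema3d was the most abundant class 3 semaphorin of the tumours, at 47.7 CPM per kilobase.

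Sema3c, which held that place in WT mice at 12.8 CPM per kilobase, went down. It had 50.8 to 152 CPM (median 90.1) in WT mice, 61.3 to 137 CPM (median 89.4) in CKO mice and 4.07 to 28.6 CPM (median 8.34) in tumours, with no overlap (log2 change -2.98, SE 0.30, adjusted p 1.7e-10 against WT). Sema3a, a classical repellent of axons, had 30.7 to 102 CPM (median 47.1) in WT mice and 6.46 to 42.1 CPM (median 18.6) in tumours, and 5 of 7 tumours were below every WT mouse (log2 change -1.41, SE 0.29, adjusted p 0.000164). Against CKO mice Sema3a did not overlap (-1.34, SE 0.28, adjusted p 0.000107).

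Sema3b had 0 to 0.473 CPM in WT mice and 0.215 to 11.5 CPM (median 1.95) in tumours, of which 6 of 7 lay above every WT mouse. Its large change (log2 change 4.13, SE 1.03, adjusted p 0.00115) rests on a level near 0 in the other mice. It was 3.51, adjusted p 0.00595 without Tumor_16844 and 4.96, adjusted p 0.00111 without WT_21593. Against CKO mice it was 4.61, SE 0.91, adjusted p 6.7e-05, and 3.87, adjusted p 0.00074 with only the deepest library of each mouse. Sema3f was called against CKO mice only (log2 change -1.39, SE 0.51, adjusted p 0.0241), and that call rested on CKO_20647, without which it was -0.75, adjusted p 0.235. It was also lost without Tumor_16840 (-1.18, adjusted p 0.0607) or Tumor_21349 (-1.23, adjusted p 0.058), with the deepest library of each mouse (-0.55, adjusted p 0.354), with RLE scaling (-1.20, adjusted p 0.0502) and when only the compared groups were fitted (-1.47, adjusted p 0.0611). Sema3e and Sema3g were called in neither comparison (-0.09 and -1.39 against WT, with the sign of Sema3e turning under RLE scaling or DESeq2).

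Membrane-bound semaphorins moved by modest amounts, none by more than 1.90 on the log2 scale, the size for Sema4a against CKO mice. Against WT mice 2 of 13 rose, 3 fell and 8 were not called, where 24.3% of all tested genes rose and 21.9% fell. Against CKO mice 4 of these semaphorins rose, 3 fell and 6 were not called, where the shares of all tested genes were 26.4% and 22.6%. Their summed level was 756 to 1125 CPM (median 836) in WT mice and 526.2 to 1054 CPM (median 821) in tumours, with overlap. Sema6d, a ligand of plexin A1, was the most abundant of them per kilobase in both WT mice and tumours, at 21.2 and 25.0 CPM per kilobase. It had 101 to 431 CPM (median 157) in WT mice and 132 to 518 CPM (median 209.9) in tumours, was not called against WT (log2 change 0.27, SE 0.28, adjusted p 0.445) and was higher against CKO mice (0.83, SE 0.27, adjusted p 0.00937).

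Sema4c, a ligand of plexin B2, had 2.00 to 8.41 CPM (median 4.33) in WT mice and 9.30 to 26.6 CPM (median 12.0) in tumours, all 7 above every WT mouse (log2 change 1.55, SE 0.34, adjusted p 0.00032). Sema4a fell, from 7.94 to 33.0 CPM (median 16.3) in WT mice to 1.51 to 10.5 CPM (median 4.58) in tumours, with 5 of 7 below every WT mouse (log2 change -1.66, SE 0.34, adjusted p 9.73e-05). Sema6a, found on oligodendrocytes, fell by less (log2 change -0.65, SE 0.20, adjusted p 0.00653), with 6 of 7 tumours below every WT mouse and 1 above all of them. Its call was lost when only the compared groups were fitted (-0.66, adjusted p 0.0832), as it was against CKO mice (-0.59, adjusted p 0.0816).

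Sema4b rose and Sema6b fell by small amounts against WT (0.65, adjusted p 0.0227, and -0.70, adjusted p 0.0477). Sema4b was not called without Tumor_16844, Tumor_21256 or WT_21591 (0.56, adjusted p 0.0561 without the first), nor when only the compared groups were fitted (0.69, adjusted p 0.0706). Against CKO mice its change of 0.60 was not called without Tumor_16844 or Tumor_21256 (0.50, adjusted p 0.0621 without the first) or with the deepest libraries (0.48, adjusted p 0.0872) or only the compared groups (0.60, adjusted p 0.0699). Sema6b was lost without any tumour but Tumor_21256, or without WT_21590, WT_21591, WT_22062 or WT_22064 (-0.51, adjusted p 0.144 without Tumor_21349), and with RLE scaling (-0.53, adjusted p 0.14) or DESeq2 (-0.54, adjusted p 0.121), among other settings. Sema5b was called against CKO mice only (log2 change 0.67, SE 0.26, adjusted p 0.0311) and was lost without CKO_20647, CKO_22146, CKO_22154, Tumor_21256 or Tumor_16713 (0.41, adjusted p 0.187 without the last), or when only the compared groups were fitted (0.69, adjusted p 0.0991). The other 6 genes, Sema4d, Sema4f, Sema4g, Sema5a, Sema6c and Sema7a, were called in neither comparison. Among them Sema5a, a ligand of plexin B3, had 241 to 359 CPM (median 322) in WT mice and 69.2 to 393 CPM (median 139.5) in tumours, with 5 tumours below and 2 above every WT mouse (log2 change -0.55, SE 0.24, adjusted p 0.0543).

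Plexins, the signalling receptors of semaphorins, mostly rose. Against WT mice 6 of 9 rose, 1 fell and 2 were not called, where 24.3% of all tested genes rose and 21.9% fell. Against CKO mice 5 rose, 1 fell and 3 were not called, where the shares of all tested genes were 26.4% and 22.6%. Plxnb3, a plexin of oligodendrocytes, had 7.94 to 27.5 CPM (median 21.3) in WT mice and 13.9 to 289 CPM (median 54.4) in tumours, with 6 of 7 above every WT mouse (log2 change 2.31, SE 0.44, adjusted p 3.92e-05). Tumor_16713 was highest, at 289 CPM, and without it the change was 1.69, adjusted p 0.000196 against WT and 1.03, adjusted p 0.013 against CKO, where it was 1.77 with it.

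Plxnd1, a receptor of Sema3e that is known from vessels, had 1.498 to 10.6 CPM (median 3.10) in WT mice and 5.66 to 45.9 CPM (median 16.7) in tumours, with 4 of 7 above every WT mouse (log2 change 2.08, SE 0.47, adjusted p 0.000365). Plxnb2, the receptor of Sema4c, had 30.6 to 56.0 CPM (median 33.2) in WT mice and 26.0 to 111 CPM (median 94.6) in tumours (log2 change 1.16, SE 0.23, adjusted p 7.84e-05). Of the tumours, 6 lay above every WT mouse and 1 below all of them. Plxnb1, a receptor of Sema4d, had 35.4 to 46.4 CPM (median 39.9) in WT mice and 35.7 to 122 CPM (median 83.2) in tumours, with 6 of 7 above (log2 change 0.99, SE 0.20, adjusted p 0.000129).

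Plxna3 rose by 1.13 against WT (adjusted p 0.000102) and by 0.61 against CKO (adjusted p 0.0168), and the latter call was lost without Tumor_16713 (0.43, adjusted p 0.089) or when only the compared groups were fitted (0.60, adjusted p 0.092). Plxna1 was called against WT only (log2 change 0.55, SE 0.23, adjusted p 0.0453), a call lost without Tumor_16713, Tumor_16844, Tumor_21349, WT_21590, WT_21591, WT_22062 or WT_21592 (0.44, adjusted p 0.123 without the last), without the filter (0.56, adjusted p 0.0645) and when only the compared groups were fitted (0.55, adjusted p 0.111). Plxnc1, the receptor of Sema7a, fell (log2 change -0.72, SE 0.23, adjusted p 0.00966), with 5 of 7 tumours below every WT mouse, and was just lost when only the compared groups were fitted (-0.69, adjusted p 0.0501). Plxna2 and Plxna4 were called in neither comparison (0.07 and 0.15 against WT).

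Nrp1, a co-receptor of class 3 semaphorins and of vascular endothelial growth factor, had 2.80 to 12.0 CPM (median 4.42) in WT mice, 3.61 to 14.2 CPM (median 6.40) in CKO mice and 13.2 to 43.7 CPM (median 16.8) in tumours. All 7 tumours lay above every WT mouse (log2 change 2.13, SE 0.37, adjusted p 1.3e-05), and against CKO mice the change was 1.88, SE 0.34, adjusted p 2.08e-05. Nrp2 had 30.0 to 47.3 CPM (median 38.3) in WT mice and 26.4 to 123 CPM (median 48.4) in tumours and was not called (log2 change 0.60, SE 0.26, adjusted p 0.0604), with 4 tumours above and 2 below every WT mouse. The 8 endothelial markers, summed, were 213 to 299 CPM in WT mice and 98.1 to 242 CPM in tumours, with none higher and 2 lower by the test. The 9 microglia markers were 125 to 195 CPM in WT mice and 274 to 973 CPM in tumours, with 8 of 9 higher. Of all tested genes 24.3% rose and 21.9% fell against WT mice. The part of both marker lists in the rise of Nrp1 and the plexins was not tested.

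**Figure D3:**
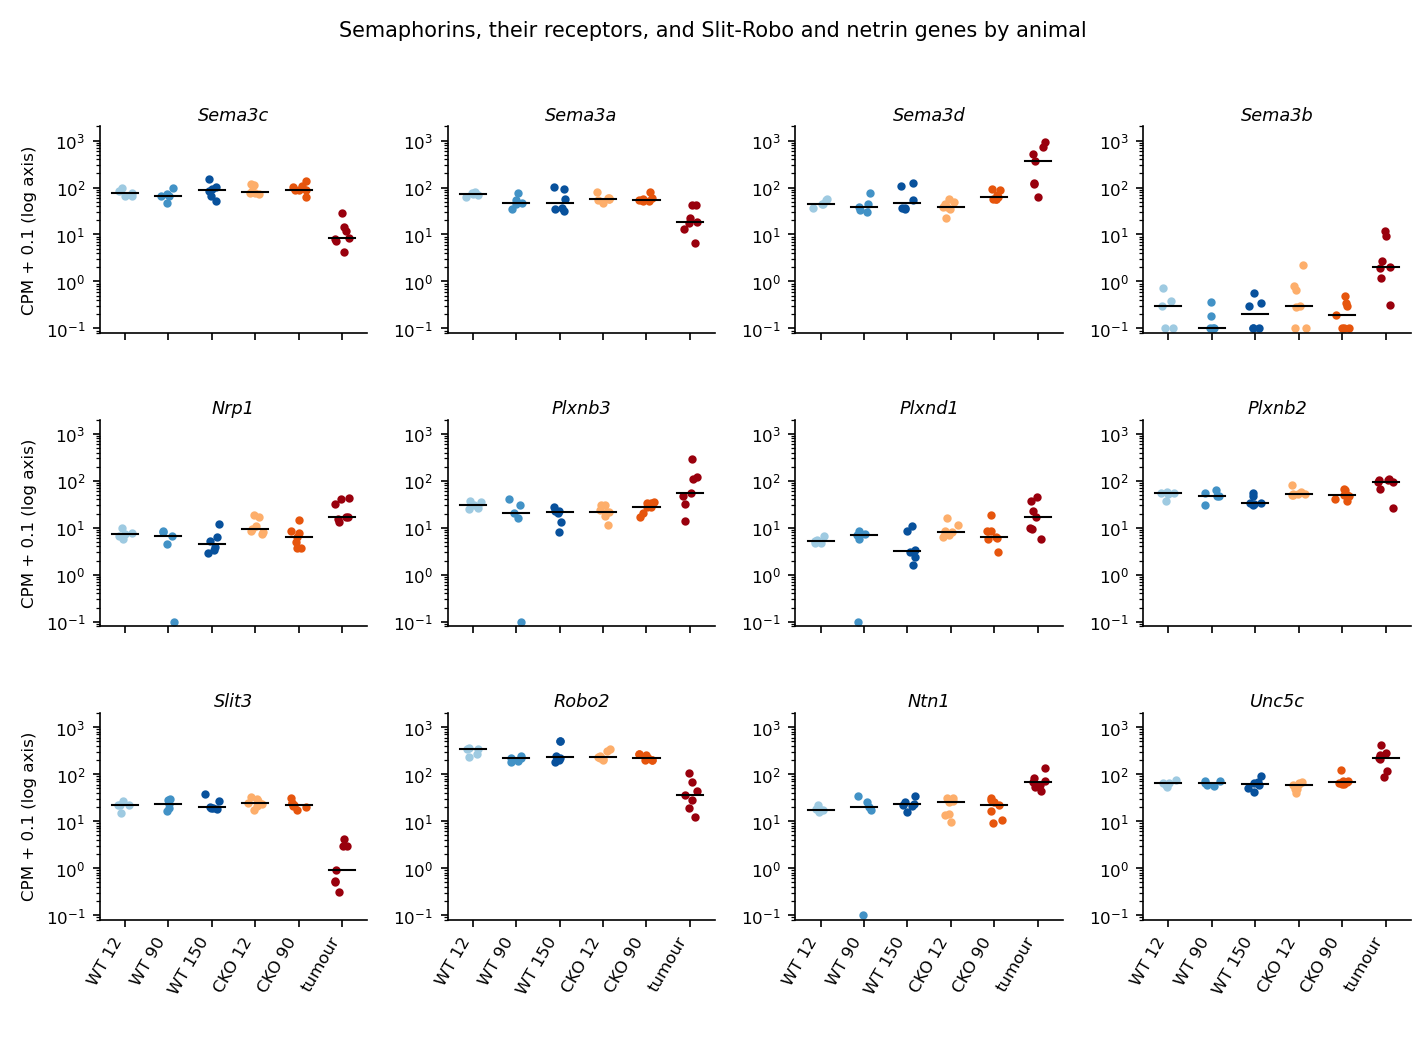
Level of 4 class 3 semaphorins, Nrp1, 3 plexins, Slit3, Robo2, Ntn1 and Unc5c in each of the 37 bulk mice (y axis, CPM plus 0.1, log axis) by group (x axis), each point a mouse and each line the group median. Sema3d spans 63.0 to 946 CPM in tumours, while Sema3c, Slit3 and Robo2 lie below the other groups there; the lone points at the bottom of the WT group at 90 dpi for Nrp1, Plxnb3, Plxnd1 and Ntn1 are the shallow WT_21167, with no count.

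Slits and Robos fell or were not called. Slit3, a secreted Robo ligand, had 17.6 to 37.1 CPM (median 19.4) in WT mice, 17.5 to 31.0 CPM (median 21.8) in CKO mice and 0.215 to 3.95 CPM (median 0.790) in tumours, with no overlap (log2 change -3.75, SE 0.37, adjusted p 1.93e-10 against WT, and -3.72, SE 0.36, adjusted p 1.02e-10 against CKO). Slit1, the Slit of neurons, had 10.3 to 27.9 CPM (median 12.8) in WT mice and 0.234 to 12.2 CPM (median 3.10) in tumours, 6 of 7 below every WT mouse (log2 change -1.71, SE 0.46, adjusted p 0.00231). Its call against WT was lost when only the compared groups were fitted (-1.64, adjusted p 0.0836), and against CKO mice its change of -1.85 was -2.55, adjusted p 9.64e-06 without Tumor_21349. Slit2 was called in neither comparison (log2 change 1.31, SE 0.56, adjusted p 0.0533 against WT, and 0.02, SE 0.49, adjusted p 0.983 against CKO), with 5 tumours above and 1 below every WT mouse.

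Robo2, the Robo receptor with the highest level per kilobase in WT mice (18.2 CPM per kilobase), had 184 to 508 CPM (median 233) there, 197 to 265 CPM (median 216) in CKO mice and 11.9 to 107 CPM (median 35.8) in tumours. No tumour reached either range (log2 change -2.78, SE 0.31, adjusted p 3.21e-09 against WT, and -2.42, SE 0.31, adjusted p 3.09e-08 against CKO). Robo3, which acts in commissural axons, was at most 1.98 CPM in WT mice at 150 dpi and at most 0.460 CPM in tumours, 4 of which had no count. It was called lower (log2 change -2.70, SE 0.93, adjusted p 0.0169 against WT), and without Tumor_21349 the change was -3.50, adjusted p 0.00495 against WT and -3.51, adjusted p 0.0034 against CKO, where it was -2.67 with it. With the deepest library of each mouse it was -3.40, adjusted p 0.00531 against WT and -3.73, adjusted p 0.00163 against CKO. Robo1 and the endothelial Robo4 were called in neither comparison (-0.63 and -0.38 against WT), and Robo1 ranged from 0 to 50.7 CPM within the WT mice alone.

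Netrins and their receptors changed gene by gene. Ntn1, the classical attractant of commissural axons, had 15.8 to 34.3 CPM (median 22.5) in WT mice, 8.93 to 30.4 CPM (median 22.1) in CKO mice and 43.5 to 134 CPM (median 69.0) in tumours. All 7 tumours lay above every mouse of both groups (log2 change 1.57, SE 0.30, adjusted p 5.63e-05 against WT, and 1.90, SE 0.29, adjusted p 9.93e-07 against CKO). Ntn4, a netrin of basement membranes, fell from 53.4 to 183 CPM (median 123) in WT mice to 24.2 to 72.7 CPM (median 43.0) in tumours, with 5 of 7 below every WT mouse (log2 change -1.38, SE 0.27, adjusted p 6.25e-05), and had 39.8 to 139.8 CPM (median 75.4) in CKO mice (-0.86, SE 0.26, adjusted p 0.00684). Per kilobase it was the most abundant netrin in both, at 32.5 in WT mice and 12.5 CPM per kilobase in tumours.

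Among the netrin receptors, Unc5c rose and Unc5a and Unc5b fell. Unc5c had 42.4 to 89.1 CPM (median 61.5) in WT mice, 60.7 to 121 CPM (median 67.3) in CKO mice and 85.6 to 412 CPM (median 223) in tumours, with 6 of 7 above every WT mouse (log2 change 1.86, SE 0.24, adjusted p 6.38e-08 against WT, and 1.61, SE 0.23, adjusted p 2.42e-07 against CKO). Unc5a had 15.7 to 38.7 CPM (median 20.5) in WT mice and 4.23 to 15.8 CPM (median 9.19) in tumours, with 6 of 7 below (log2 change -1.20, SE 0.30, adjusted p 0.00104). It overlaps the hexokinase gene Hk3 on the other strand, and whether the counting used strand was not given in the sources used here, which also holds for Epha1 with Zyx and Ephb4 with Zan. Unc5b had 11.1 to 23.8 CPM (median 15.6) in WT mice and 3.87 to 12.0 CPM (median 8.27) in tumours, with 6 of 7 below (log2 change -0.94, SE 0.21, adjusted p 0.000298).

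Dcc, the attractive netrin receptor, was called in neither comparison, with 17.6 to 29.9 CPM (median 20.4) in WT mice, 18.3 to 38.1 CPM (median 27.5) in CKO mice and 13.7 to 50.6 CPM (median 17.0) in tumours (log2 change 0.12, SE 0.24, adjusted p 0.717 against WT, and -0.19, SE 0.23, adjusted p 0.499 against CKO). Unc5d was called lower against CKO mice only (log2 change -1.16, SE 0.41, adjusted p 0.0202). That call rested on CKO_20647, which had 135 CPM, and without this mouse it was -0.36, adjusted p 0.431. With the deepest library of each mouse it was -0.25, adjusted p 0.622, and it was also lost when only the compared groups were fitted (-1.18, adjusted p 0.111).

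**Figure D4:**
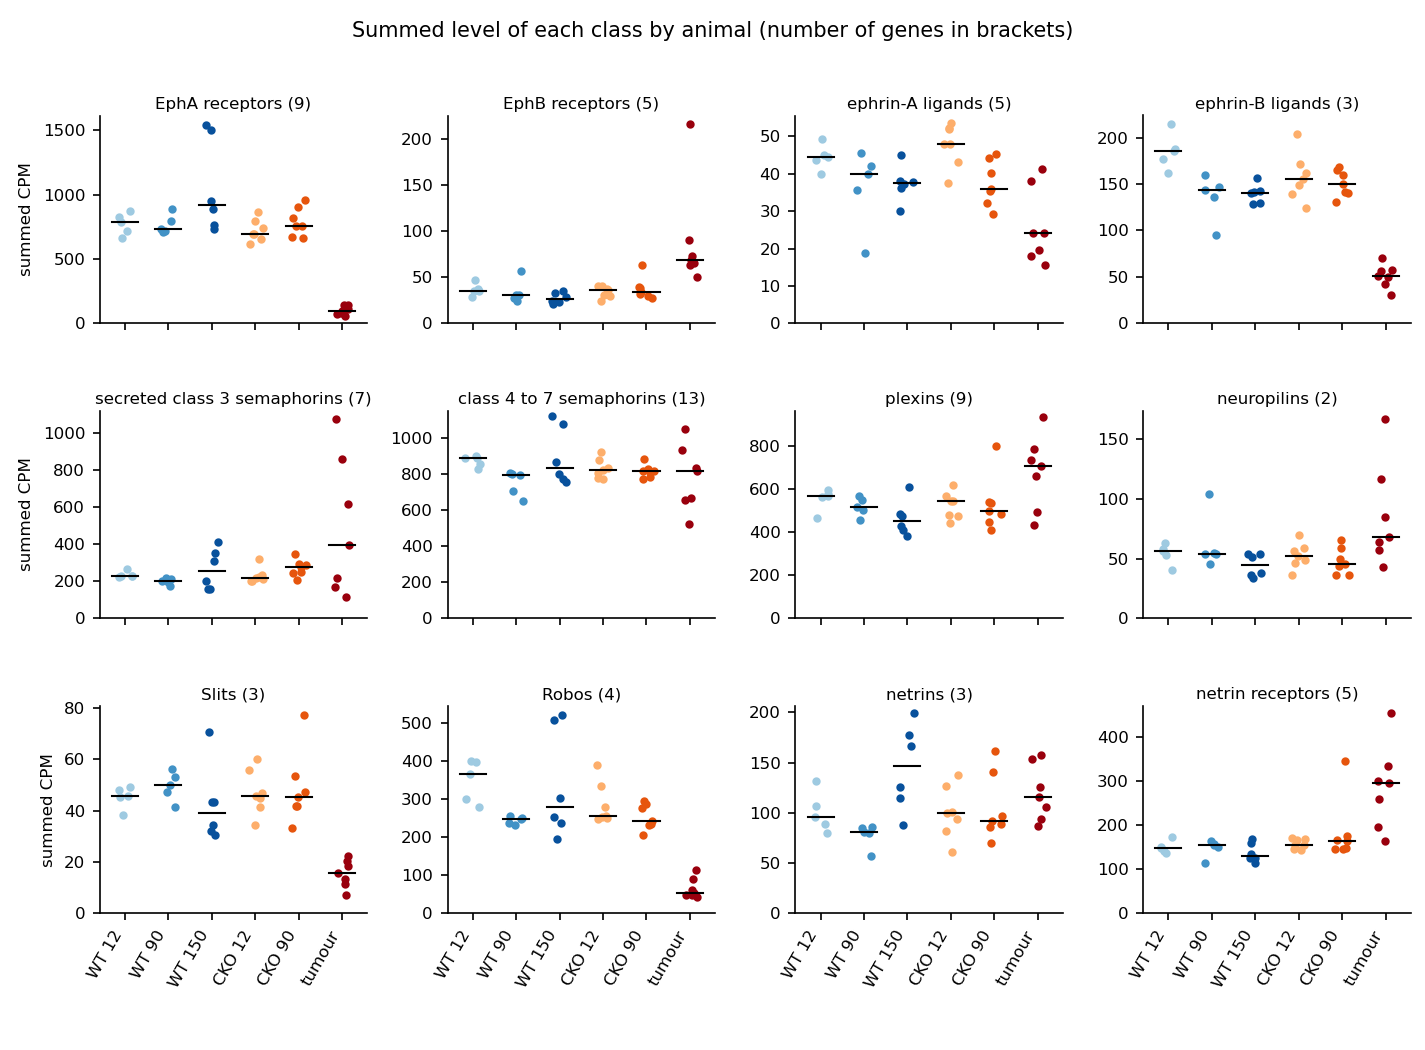
Summed level of each of 12 classes (y axis, CPM, linear axis from 0) by bulk group (x axis), with a point for each mouse and a line at the group median. EphA receptors go from a median of 919 CPM in WT mice at 150 dpi to 95.5 CPM in tumours, whereas membrane-bound semaphorins have medians of 836 and 821 CPM.

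The leading gene of several families differed between WT mice and tumours on the scale per kilobase of exon. In WT mice at 150 dpi the leading gene of the Eph receptors was Epha5, at 37.6 CPM per kilobase, and in tumours it was Ephb3, at 5.37. Without Tumor_16844 the mean of Ephb3 was 2.21 CPM per kilobase, and Epha4 led at 5.77. The leading plexin was Plxnc1 in WT mice, at 11.9 CPM per kilobase, and Plxnb3 in tumours, at 14.7. Without Tumor_16713 the mean of Plxnb3 was 9.72 CPM per kilobase, and Plxnb2 led at 10.6. The leading netrin receptor was Unc5a in WT mice, at 5.55 CPM per kilobase, and Unc5c in tumours, at 11.8. These orders depend on the length scale, with 19.1 kilobases of exon for Unc5c and 4.17 for Unc5a. In CPM, Unc5c was already above Unc5a, and Plxna2 above Plxnc1, in every WT mouse at 150 dpi. Whether bulk counts grow with exon length was not tested. Slit3 led the Slits in WT mice, at 3.81 CPM per kilobase, and Slit1 in tumours, at 0.749. The place of Slit1 also depends on the length scale, with 25.4 kilobases of exon for Slit2 and 5.92 for Slit1. In counts, Slit2 was above Slit1 in every tumour but Tumor_16844 and Tumor_21349. Efnb3, Sema6d, Nrp2, Robo2 and Ntn4 led their families per kilobase in both. By median CPM, Efnb2 was above Efnb3 in both, Sema5a above Sema6d in WT mice and Ntn1 above Ntn4 in tumours. Ntn1 passed Ntn4 in tumours without Tumor_16844 (11.4 against 11.3 CPM per kilobase) or Tumor_21354 (12.2 against 11.8), and Sema6a and Sema6d were level in WT mice without WT_21591, at 17.3 CPM per kilobase.

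The difference between mutant and WT mice was then compared between 150 dpi, when the mutants had tumours, and 90 dpi. This genotype effect differed for 30 of the 66 genes, 13 towards higher and 17 towards lower in tumours, where 30% of all tested genes were called (14.2% higher and 15.8% lower). Under RLE scaling 14 were higher and 17 lower and under DESeq2 15 and 17, and the share of all calls that were higher went from 47.2% to 57.3% and 58.6%. The comparison uses the same tumours again. The largest differences towards lower were Epha6 (-6.45, SE 0.29, adjusted p 4.95e-18), Epha3 (-4.39, SE 0.48, adjusted p 4.88e-09) and Epha10 (-4.16, SE 0.50, adjusted p 3.12e-08). Those towards higher were Efna1 (3.85, SE 0.77, adjusted p 0.000166), Ephb3 (3.03, SE 0.76, adjusted p 0.00226) and Ephb2 (2.97, SE 0.40, adjusted p 3.55e-07). Without Tumor_16844 the Ephb3 difference was 1.81, adjusted p 0.00673, and without Tumor_16713 that of Plxnb3 was 1.51, adjusted p 0.0219, where it was 2.19 with it. Calls of Plxna3 (0.95), Plxnd1 (1.81) and Sema4c (1.37) were each lost without at least 1 mouse and when only the 4 groups involved were fitted. For Plxna3 this was WT_22184 (0.88, adjusted p 0.0596). For Plxnd1 the mice were CKO_22149, Tumor_16713, WT_21591, WT_22062, WT_22064, WT_22254 and WT_22255 (1.71, adjusted p 0.0676 without WT_22254), and for Sema4c they were CKO_22146, WT_21590, WT_21593, WT_22062 and WT_22254 (1.31, adjusted p 0.0651 without WT_22254).

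Outside the tumours, no axon guidance gene was called between mutant and WT mice or between times. The test called 0 of 66 between CKO and WT mice at 12 dpi, where 0.0184% of all tested genes were called, and 0 at 90 dpi, where 0.0489% were. It also called 0 in CKO mice between 90 and 12 dpi (0% of all genes), in WT mice between 90 and 12 dpi (0.00612%), in WT mice between 150 and 90 dpi (0.0184%) and for the genotype effect at 90 against 12 dpi (0%). At an unadjusted p under 0.05 the counts were 4, 2, 5, 4, 6 and 2 in that order, where the shares of all genes were 4.85%, 5.19%, 4.23%, 4.84%, 8.25% and 3.61%. DESeq2 called 1 gene at 12 dpi, Ephb2, where it called 0.0795% of all genes, and 0 in each of the other 5.

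Ephb2 was the nearest to a call before tumours. At 12 dpi the WT mice had 4.09, 5.96, 8.03, 10.2 and 18.9 CPM and the CKO mice 1.67 to 6.76 CPM (median 3.94), so the groups overlapped with the lower values in CKO mice. The change was -1.29, SE 0.28, adjusted p 0.14 by edgeR, -1.26 with an adjusted p of 0.018 by DESeq2, and -1.46 with an adjusted p of 0.0323 by edgeR without WT_22056. At 90 dpi the WT mice had 0, 3.91, 4.23, 4.97 and 6.49 CPM, with 0 in the shallow WT_21167, and the CKO mice 2.95 to 6.62 CPM (median 4.99), and the change was -0.03, SE 0.29, adjusted p 1. The difference between the 2 times was 1.26, SE 0.41, adjusted p 1. The tumours, at 17.4 to 38.7 CPM (median 30.5), lay above every CKO mouse of both times, and the highest WT mouse at 12 dpi lay within their range.

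Other genes at an unadjusted p under 0.05 between CKO and WT mice did not pass the adjustment. At 12 dpi Robo3 had 0, 0, 0, 0.0973 and 0.304 CPM in WT mice and 0 to 3.34 CPM (median 2.20) in CKO mice (4.44, SE 1.30, adjusted p 0.614). Sema4b had a log2 change of 0.62, SE 0.25, adjusted p 0.998 and Efnb2 of -0.43, SE 0.20, adjusted p 0.998. At 90 dpi Efna1 had 1.08, 2.06, 2.49, 3.16 and 9.47 CPM in WT mice, the highest being WT_21167 with 1 count, and 0.294 to 1.28 CPM (median 0.674) in CKO mice (-1.70, SE 0.56, adjusted p 0.719). Robo4 had a change of -0.94, SE 0.44, adjusted p 0.929. In WT mice, Ntn4 had 45.4, 56.8, 59.0, 63.5 and 66.1 CPM at 90 dpi and 53.4 to 183 CPM (median 123) at 150 dpi (1.06, SE 0.31, adjusted p 0.516). The other 5 of those 6 were Epha2 (-1.47), Slit2 (-1.28), Dcc (-0.63), Sema6d (0.76) and Ephb4 (1.36).

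In CKO mice at 90 against 12 dpi the genes at an unadjusted p under 0.05 were Slit2 (1.20), Robo4 (-1.08), Efna3 (-0.51), Sema4b (-0.50) and Sema4g (-0.47). In WT mice they were Robo3 (3.24), Ephb4 (-1.16), Ephb2 (-0.93) and Efnb2 (-0.45), and for the genotype effect Robo3 (-4.03) and Ephb2. Fitted with only WT mice at these times, Sema3a (-0.64, adjusted p 0.0336) and Robo2 (-0.59, adjusted p 0.0329) were called lower at 90 than at 12 dpi, where 2.22% of all genes were called in that fit.

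The small libraries held fewer of these genes than bulk RNA. A median of 20.5 of the 68 had a count in a 10-cell library at 12 dpi and 33 at 90 dpi, and 27 and 26 in pool-and-split libraries at those times. Detection did not follow the bulk level alone. Epha6, at 56.6 to 99.2 CPM (median 82.7) in bulk CKO mice at 90 dpi, had a count in 2 of 56 10-cell libraries at 12 dpi and 2 of 56 at 90 dpi. Robo1, at 21.0 to 47.1 CPM (median 27.6) in bulk CKO mice at 12 dpi, had a count in 0 of 192 small libraries. Counting error would allow a share of up to 1.56% if all libraries were independent. Libraries of 1 set can share a mouse, so the true limit is wider. Dcc had a count in 3 of 56 and 3 of 56 10-cell libraries at 12 and 90 dpi. The labels give a T7-based amplification for bulk RNA and PCR for the small libraries, and the part of this difference in detection was not tested.

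**Figure D5:**
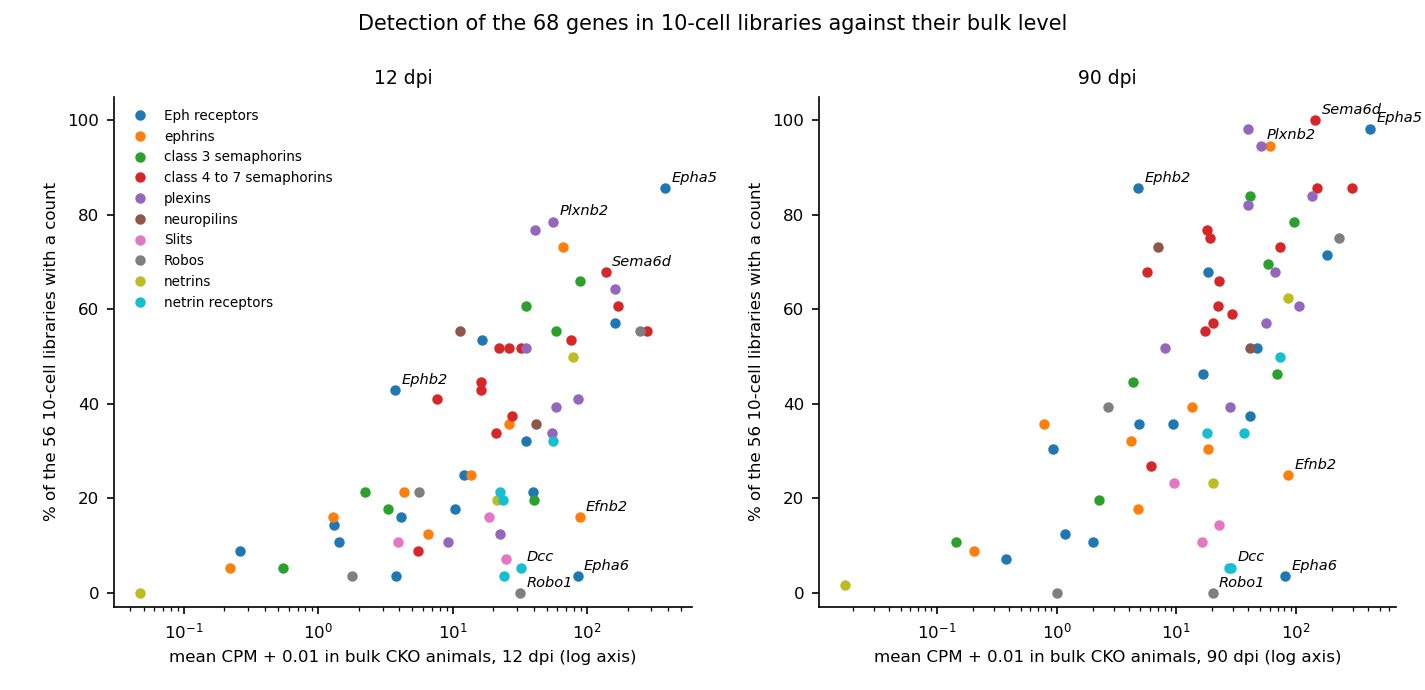
Share of the 56 10-cell libraries with a count (y axis, percent) against the mean level in bulk CKO mice plus 0.01 (x axis, CPM, log axis) for each of the 68 genes at 12 dpi and 90 dpi, coloured by family. Sema6d, Epha5 and Plxnb2 are in nearly all libraries at 90 dpi, while Epha6, Dcc and Robo1 are in few or none although bulk mice have them.

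At the other end, Epha5 had a count in 48 of 56 10-cell libraries at 12 dpi and 55 of 56 at 90 dpi. Sema6d had one in 38 of 56 and 56 of 56, and Plxnb2 in 44 of 56 and 53 of 56. Ephb2, at only 2.95 to 6.62 CPM (median 4.99) in bulk CKO mice at 90 dpi, was in 24 of 56 10-cell libraries at 12 dpi and 48 of 56 at 90 dpi, and in 25 of 40 and 34 of 40 pool-and-split libraries. Median total counts in units of 1000000 were 4.48 in 10-cell libraries at 12 dpi and 4.04 at 90 dpi. The median summed levels of the marker lists also stood apart between these times, most for microglia, oligodendrocyte and proliferation markers, with overlap between libraries, and their part in detection was not tested. From 12 to 90 dpi the medians over 10-cell libraries went from 589 to 1815 CPM for oligodendrocyte, 1822 to 3082 CPM for astrocyte, 135 to 512 CPM for microglia, 738 to 884 CPM for OPC, 3626 to 2838 CPM for neuron, 539.7 to 474 CPM for endothelial and 0.843 to 3.27 CPM for proliferation markers.

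Between 90 and 12 dpi no axon guidance gene was called in the small libraries. Libraries were summed into 4 sets per time by sex and the number ending their label, whose meaning the labels do not give. By edgeR's quasi-likelihood test, 0 of 60 tested genes were called in 10-cell sets, where 0% of all genes were called in either direction, and 0 of 51 in pool-and-split sets (0%). At an unadjusted p under 0.05 there were 3 of each, where the shares of all genes were 7.15% and 7.84%. In 10-cell sets Ephb2 had 0.122, 0.378, 0.440 and 0.852 CPM at 12 dpi and 0.784, 2.71, 11.9 and 13.0 CPM at 90 dpi (3.98, SE 1.27, unadjusted p 0.0116, adjusted p 0.634). In pool-and-split sets it had 0.317, 0.747, 6.83 and 32.3 CPM and 0.975, 1.13, 2.49 and 20.3 CPM, where the times overlapped widely. Sema4f, a membrane-bound semaphorin, had 47.5, 56.8, 101 and 107 CPM in 10-cell sets at 12 dpi and 9.36, 16.8, 21.0 and 26.9 CPM at 90 dpi, without overlap (-1.99, SE 0.53, unadjusted p 0.00427, adjusted p 0.634). In pool-and-split sets Sema4f showed no such fall (-0.04, SE 0.697, unadjusted p 0.955). The third gene in 10-cell sets was Sema3d (4.04, SE 1.58, unadjusted p 0.0305, adjusted p 0.669). Its change in pool-and-split sets was 2.74 (SE 1.42, unadjusted p 0.0817). DESeq2 called 1.88% of all genes and 2 of the 60, Sema4f (-2.02) and Ephb2 (3.97).

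In pool-and-split sets the 3 were Efna3, Epha7 and Sema3f. Efna3 had 1.28, 10.1, 28.6 and 51.9 CPM at 12 dpi and 0.128, 0.663, 0.977 and 1.71 CPM at 90 dpi (-4.87, SE 1.57, unadjusted p 0.0113, adjusted p 0.594). Epha7 had 7.44, 12.1, 22.2 and 40.9 CPM and 1.10, 1.17, 2.59 and 3.40 CPM (-3.42, SE 1.19, unadjusted p 0.0163, adjusted p 0.594). Sema3f had 0, 0, 0.149 and 0.261 CPM and 0.944, 1.88, 2.80 and 4.01 CPM (5.55, SE 1.55, unadjusted p 0.00504, adjusted p 0.581). DESeq2 called 3.89% of all genes, and among the 51 tested guidance genes these 3 (-4.90, -3.45 and 5.85). In bulk CKO mice the same 3 genes were not called between these times (-0.51, 0.24 and 0.36).

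Spread between 10-cell libraries beyond that of pool-and-split libraries measures variation from one group of 10 cells to the next. No axon guidance gene had a called difference in spread, with 0 of 22 tested at 12 dpi, where 0.0254% of all genes were called with larger spread, and 0 of 28 at 90 dpi, where 0.238% were called with larger and 0.341% with smaller spread. At an unadjusted p under 0.05 there were 2 at 12 dpi and 0 at 90 dpi, where the shares of all genes were 9.54% and 13.9%. The test was limma on the absolute deviations of log2(CPM + 1). At 12 dpi Sema3a had the larger deviations in 10-cell libraries (1.04, SE 0.36, unadjusted p 0.00487, adjusted p 0.361) and Ephb2 the smaller ones (-0.42, SE 0.20, unadjusted p 0.0445, adjusted p 0.51).

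Guidance molecules outside the 68 were read from lists of the same pathway. Of 28 other guidance molecules, 7 rose and 12 fell in tumours against WT mice, and 7 rose and 13 fell against CKO mice. The chemokine receptor Cxcr4 rose (3.55, SE 0.54, adjusted p 1.16e-06) and so did the netrin antagonist Draxin (2.99, SE 0.62, adjusted p 0.000143). The morphogen Shh (-3.40, SE 0.35, adjusted p 4.11e-10) and the cadherin Celsr3 (-2.59, SE 0.24, adjusted p 2.22e-11) fell. Of 50 signalling and cytoskeletal effectors, 11 rose and 20 fell against WT mice, and 8 rose and 19 fell against CKO mice. Against WT mice the largest rises were Met (6.79, SE 1.47, adjusted p 0.000244) and the Slit-Robo GTPase-activating protein Srgap1 (2.02, SE 0.20, adjusted p 1.48e-10). The actin-binding Ablim3 (-4.71, SE 0.24, adjusted p 3.18e-18) and the Rac activator Tiam1 (-2.63, SE 0.19, adjusted p 9.6e-14) fell. Against CKO mice the largest called rises were Srgap1 (1.82) and Dock1 (1.63), so Met had no called rise above 1.63 there. The levels of Met by mouse and its change under the alternatives were not examined. The background shares are those given above for the same comparison, 24.3% higher and 21.9% lower against WT.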

How the data were processed

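RNA from laser-captured cells was sequenced as 48 bulk and 192 small libraries. The values deposited by the authors are RSEM expected counts per gene, unscaled, and 86.5% of them are whole numbers. The submitters' processing notes name Bowtie2, RSEM and the build GRCm38, without versions. Here 92 spike-ins were left out, counts were rounded, and the 2 libraries of each of 11 mice were summed, as libraries of 1 mouse are not replicates. Library totals, given above, set the precision, and mice varied with a common coefficient of 0.418 in edgeR. The bulk fit in edgeR 4.0.16 (R 4.3.3) kept 16347 genes by filterByExpr (count of at least 10, total of at least 15), used TMM factors and held all 37 mice, with a term for sex and quasi-likelihood tests. Small libraries were summed into 4 sets per time and kind, and their spread was tested with limma 3.58.1 (genes detected in at least 0.5 of libraries, pseudocount 1). P-values were adjusted by Benjamini-Hochberg over all tested genes. Lengths per kilobase are merged exons of GENCODE M21. Scripts were tested on simulated data. Alternatives were DESeq2 1.42.0, RLE scaling, no low-count filter, only genes averaging 10 CPM or more, no sex term, the deepest library per mouse, a fit limited to the compared groups, leaving out each mouse or set, pseudocounts of 0.1 and 5 and detection in 0.9 or 0.1 of libraries.

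Leading genes per kilobase were also computed without each mouse, an alternative chosen after seeing the data. The genes and lists were chosen with earlier results of these data known. All 68 may be named with levels. With changes, up to 10 largest rises and 10 largest falls per comparison and the leading gene of each family per kilobase were named by rule, and other genes to account for every member. The labels do not say whether mice shared litters or batches, or what the sets share, so p-values between sets measure only the spread between these sets.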

Additional observations from a re-analysis of the deposited data

Results flagged for a closer look

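In 14 of 138 groups of 5 to 7 values (23 genes, each in the 6 bulk groups), 1 mouse lay far from the others by Dixon's criterion. Chance meets it in about 1 in 20 groups of normally distributed values. The check used CPM without a log, and all 14 mice were the highest of their group, so that rate may not hold here. In tumours these were Ephb3 at 161.7 CPM (Tumor_16844, next 23.6), Plxnb3 at 289 CPM, Ntn1 at 133.7 CPM and Sema3c at 28.6 CPM (all Tumor_16713), Epha4 at 95.5 CPM (Tumor_16839) and Efna4 at 2.60 CPM (Tumor_21354). In CKO mice at 90 dpi they were Unc5c at 121 CPM, Epha10 at 32.3 CPM and Plxnd1 at 18.8 CPM (all CKO_20647) and Efna4 at 0.802 CPM (CKO_22212). Sema3b was at 2.10 CPM in CKO_22364 at 12 dpi. In WT mice Efna3 was at 34.9 CPM in WT_22064 at 150 dpi, and Efna1 at 9.47 and Sema4c at 18.9 CPM in WT_21167 at 90 dpi, which are 1 and 2 counts.

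The genotype effect differed between 150 and 90 dpi, by a test of the difference itself, for the 20 genes named in that comparison. Towards higher values in tumours the log2 differences were 3.85 for Efna1, 3.03 for Ephb3, 2.97 for Ephb2, 2.19 for Plxnb3, 2.06 for Nrp1, 1.83 for Sema3d, 1.81 for Plxnd1, 1.80 for Ntn1, 1.69 for Unc5c and 1.37 for Sema4c. Towards lower values they were -6.45 for Epha6, -4.39 for Epha3, -4.16 for Epha10, -3.999 for Epha5, -3.69 for Slit3, -3.38 for Sema3c, -3.20 for Epha7, -3.14 for Efna3, -2.93 for Robo2 and -2.32 for Epha4.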

How the results depend on the processing

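The number of axon guidance genes called in tumours was 30 to 42 against WT mice and 35 to 48 against CKO mice over the alternatives, and 38 to 41 and 42 to 46 with each mouse left out. For the genotype effect at 150 against 90 dpi it was 27 to 32, and 28 to 33 with each mouse left out. None of the called genes reversed under any alternative that was run, and 32 of 40, 36 of 44 and 27 of 30 were called under all of them in which they passed the filter. Between CKO and WT mice at 12 dpi the count was 1 under DESeq2 (Ephb2) and 0 to 1 with each mouse left out. Between WT mice at 90 and 12 dpi it was 2 when only those groups were fitted, and under DESeq2 it was 2 for 10-cell sets and 3 for pool-and-split sets; the cause was not tested. All other counts before tumours, in the sets and for spread were 0 under each alternative and with each mouse or set left out. RLE scaling moved the median log2 change of all genes from 0.06 to 0.22 against WT and from 0.12 to 0.29 against CKO, and the shift of calls towards higher values stands beside each count above. Under RLE or DESeq2 the sign changed only for genes that were not called, among them Sema3e and Sema3f. With the number ending the labels of the sets as a replicate block, the count was 0 for both kinds of set. The correlations of the deviations of same-numbered sets were -0.039 to 0.0185. Sets varied with common coefficients of 0.955 (10-cell) and 1.08 (pool-and-split), so these correlations cannot show whether same-numbered sets share anything. No paired analysis was possible for the bulk mice because their numbers differ between groups. Depth limits WT_21167 most, where 1 count is 9.47 CPM, and 10-cell libraries, where genes with few counts are often at 0.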
